A study of Mus musculus with 15 samples.

Results

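The 10 genes followed here in mouse inguinal fat were chosen by symbol and not by a threshold on any measured value: Mfn1, Mfn2, Opa1, Dnm1l, Fis1, Immt, Tfam, Pink1, Park2 and Bnip3. They encode proteins that fuse, divide and fold mitochondria, package their DNA and mark damaged ones for removal. They make up 10 of the 24015 genes in the count table, and all 10 passed the filter on low counts that left 15288 genes for testing. Earlier results of these data were known when the members and the lists of related genes used below were chosen. Counts set against the share of all genes are therefore descriptions only.

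RNA was taken from inguinal white adipose tissue, the subcutaneous fat pad of the groin, of C57BL/6 mice, an inbred strain. No transgene or deletion is named for any group. The young mice were 2 months old and the aged mice 12 months old. All were first kept at thermoneutrality, a temperature at which mice need no extra heat, for 2 weeks, and then received either CL or vehicle by intraperitoneal injection over 5 days. The labels expand CL as cardiolipin, a mitochondrial lipid, while CL is also the everyday short name of a β-adrenergic agonist used to activate fat. Which was given is not settled here, so the name CL is kept. The groups are young vehicle (Young_Ctrl, n = 4), young CL (Young_CL, n = 4), aged vehicle (Old_Ctrl, n = 3) and aged CL (Old_CL, n = 4), which makes 15 libraries. Old_Ctrl carries replicate numbers 1, 3 and 4, and replicate 2 is not analysed here. No label ties a library to its own animal, so the p-values reflect the spread among these samples alone, which may be technical.

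Mitochondria in a cell form a network that is constantly joined and cut. Mfn1 and Mfn2 are large GTPases that tether and fuse outer membranes, and Opa1 fuses inner membranes and keeps the cristae, the folds that hold the respiratory chain, tight. Immt (mitofilin, Mic60) is the core of MICOS, the complex at the neck of each crista. Dnm1l (Drp1) is the GTPase that constricts and divides the organelle, and Fis1 is an outer membrane protein linked to division. Tfam coats mitochondrial DNA and helps to start its transcription. Pink1 is a kinase that accumulates on damaged mitochondria and activates the ubiquitin ligase Parkin, the product of Park2. Bnip3 is an outer membrane receptor that binds the autophagosome directly. In fat, stimulated adipocytes build many mitochondria, and mitophagy is known to remove them when beige adipocytes turn white.

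Promoter sequences of the members were read from RefSeq (GRCm38.p6), which held 9 of the 10 and no entry for Park2. Of these, 6 are shown from position -150 to -1 before the first listed start of transcription: the 4 genes that rose with CL at both ages, and Tfam and Bnip3, which differed with age in opposite directions after CL. Capitals mark words that a search on both strands found. The words were CGCATGCG (the core bound by NRF1), CCGGAAGT (bound by ETS factors such as GABP), TGACG or its reverse complement CGTCA (the half-site of CREB), CACGTG (an E-box) and AAGGTCA (the half-site of ERR). None of these words overlaps another in the stretches shown.
Mfn1 (chr3:32529332-32529481, plus strand): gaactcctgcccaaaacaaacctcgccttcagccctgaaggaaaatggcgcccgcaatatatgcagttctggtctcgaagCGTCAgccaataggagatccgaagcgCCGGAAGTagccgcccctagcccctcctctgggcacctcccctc
Mfn2 (chr4:147904910-147905059, minus strand): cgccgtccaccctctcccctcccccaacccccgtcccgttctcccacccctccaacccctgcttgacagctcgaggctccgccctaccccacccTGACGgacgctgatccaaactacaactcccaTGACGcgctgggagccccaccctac
Opa1 (chr16:29579184-29579333, plus strand): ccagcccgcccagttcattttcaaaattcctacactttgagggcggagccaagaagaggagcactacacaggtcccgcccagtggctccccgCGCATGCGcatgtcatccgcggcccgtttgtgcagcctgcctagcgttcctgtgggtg
Immt (chr6:71831170-71831319, plus strand): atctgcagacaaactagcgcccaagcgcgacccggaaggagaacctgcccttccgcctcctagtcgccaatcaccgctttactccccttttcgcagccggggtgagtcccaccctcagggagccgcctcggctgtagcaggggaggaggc
Tfam (chr10:71238045-71238194, minus strand): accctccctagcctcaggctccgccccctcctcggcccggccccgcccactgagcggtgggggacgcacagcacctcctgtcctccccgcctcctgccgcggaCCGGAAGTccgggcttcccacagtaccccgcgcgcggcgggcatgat
Bnip3 (chr7:138909507-138909656, minus strand): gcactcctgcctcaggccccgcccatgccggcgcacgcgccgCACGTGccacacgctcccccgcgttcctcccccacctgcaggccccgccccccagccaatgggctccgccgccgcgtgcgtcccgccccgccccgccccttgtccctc

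The NRF1 core stood at -58 of Opa1. The ETS word stood at -44 of Mfn1, at -47 of Tfam and at -18 of Fis1. CREB half-sites began at -70 of Mfn1 and at -56 and -25 of Mfn2, and the E-box at -108 of Bnip3. Immt, Pink1 and Dnm1l held none of the words, and the ERR half-site was in none of the 9 genes. Of 32851 RefSeq promoters, 1.55% held the NRF1 core in the 250 bases before the start, 2.88% the ETS word, 17.8% the CREB half-site, 6.02% the E-box and 4.08% the ERR half-site. A match is a string of letters and not a site shown to be used in these samples, and the genes with the ETS word differ in how they moved below.

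Library totals spanned 7066687 to 14796440 counts in Young_Ctrl, 6115542 to 30621448 in Young_CL, 6495373 to 51577001 in Old_Ctrl and 15723586 to 40235461 in Old_CL. Adipocyte markers (15 genes such as Adipoq and Plin1) were abundant in every library, and their summed level moved with the groups, from 25402 to 61554 CPM (counts scaled to a common library size) in Young_Ctrl, 68905 to 78832 in Young_CL, 44897 to 65434 in Old_Ctrl and 98236 to 117222 in Old_CL. The 15 B cell and lymph node markers ran the other way, from 2041 to 2918 CPM in Young_Ctrl, 1240 to 1717 in Young_CL, 726 to 1459 in Old_Ctrl and 622 to 825 in Old_CL. In such bulk samples, fewer cells of a type and less RNA per cell cannot be told apart. The mean log2 CPM of a marker set is its score, used below as a covariate in some fits. The lymph node score of Young_Ctrl (6.85 to 7.38) did not overlap that of Old_Ctrl (5.36 to 6.38) or Young_CL (6.13 to 6.63). Nor did it overlap between Young_CL and Old_CL (5.13 to 5.52). The adipocyte score of Old_CL (11.73 to 11.85) did not overlap that of Old_Ctrl (10.54 to 11.03) or Young_CL (10.97 to 11.07). In those comparisons score and group cannot be told apart, so a call lost, kept or gained with that covariate has no clear reading. The 20 skeletal muscle markers were plentiful in 5 libraries, Young_CL 1, 2 and 3, Old_Ctrl 3 and Old_CL 3, with summed levels up to 6196, 10153 and 4691 CPM in these groups against at most 496 CPM in Young_Ctrl. Old_CL 1, 2 and 4 were closer to one another than any other pair within a group, with a robust SD of log2 ratios of at most 0.0933 against at least 0.116 in the 18 other pairs, and were kept as separate samples.

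Levels below are CPM scaled by the TMM method, and changes are log2 differences from edgeR's quasi-likelihood test with Benjamini-Hochberg adjustment over all 15288 genes; a gene is said to have risen or fallen where the adjusted p is under 0.05. Per kilobase of exon, Bnip3 stood highest in young vehicle fat at 121 ± 28.8 CPM per kb (SD, n = 4). Pink1 followed at 73.98 ± 18.7, Fis1 at 66.6 ± 3.76 and Immt at 49.6 ± 12.1 CPM per kb, and the range of each of these overlapped that of the next in order. Then came Mfn2 at 30.1 ± 8.63, Dnm1l at 17.6 ± 2.17, Opa1 at 11.3 ± 1.65, Tfam at 10.1 ± 1.44 and Mfn1 at 7.70 ± 0.659 CPM per kb. The ranges of Immt and Mfn2, of Opa1 and Tfam, and of Tfam and Mfn1 overlapped, while Dnm1l stood apart from both its neighbours. Park2 was far below the rest at 0.895 ± 0.170 CPM per kb, with 19 to 282 counts in each of the 15 libraries. In aged CL fat the same per-kilobase scale put Bnip3 at 295 ± 39.3, Pink1 at 175 ± 15.2, Immt at 145 ± 12.0, Fis1 at 94.5 ± 8.58 and Mfn2 at 85.2 ± 2.10, so that Immt stood above Fis1 there.

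**Figure D1:**
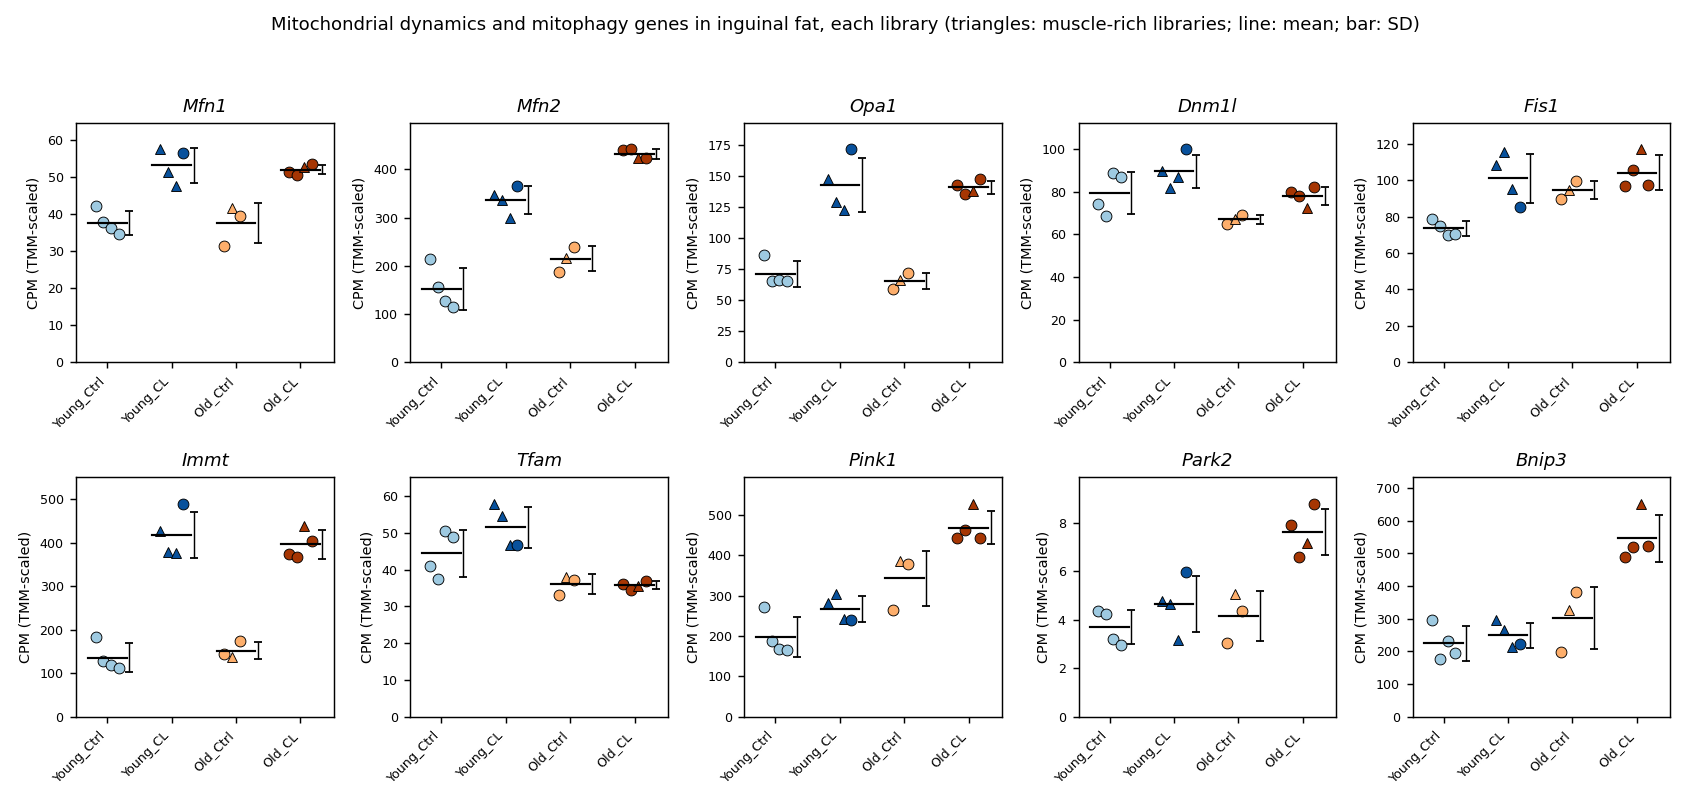
Each panel is 1 gene, with the level in every library in CPM (TMM-scaled) on the y axis and the 4 groups on the x axis. Points are libraries, triangles are the 5 libraries rich in muscle transcripts, the line is the group mean and the bar at its right the SD. For Mfn1, Mfn2, Opa1 and Immt all CL libraries lie above all vehicle libraries of the same age, while for Tfam the 4 Old_CL libraries lie below the 4 Young_CL libraries.

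In young mice, CL was followed by higher transcripts for fusion and cristae and for Fis1, linked to division, while the fission GTPase gene Dnm1l did not pass. Differences between members were not tested. Mfn1, Mfn2, Opa1, Immt, Fis1 and Pink1 rose, 6 of the 10 members, and 0 fell. Across all genes tested 43.9% changed (21.7% rose and 22.1% fell). The median log2 change of the 10 members was 0.45, against -0.07 over all genes.

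In aged mice 6 members again rose and 0 fell: Mfn1, Mfn2, Opa1, Immt, Park2 and Bnip3. All genes tested changed in 45.2% of cases there (23.1% rose and 22.2% fell). The members' median log2 change was 0.64 and that of all genes -0.01. Thus 4 genes, Mfn1, Mfn2, Opa1 and Immt, rose at both ages. None of the 10 members had an age by CL interaction that passed the edgeR test after adjustment, against 7.08% of all genes (3.31% higher and 3.77% lower); 2 of the 10, Bnip3 and Fis1, had an unadjusted p under 0.05. DESeq2 and limma-voom also called 0 members.

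Of the outer membrane fusion genes, Mfn2 moved most. Its level was 213, 156, 127 and 115 CPM in Young_Ctrl 1 to 4 and 347, 336, 298 and 365 CPM in Young_CL 1 to 4. In aged mice it was 188, 217 and 240 CPM in Old_Ctrl 1, 3 and 4 and 441, 442, 423 and 423 CPM in Old_CL 1 to 4. At each age every CL library stood above every vehicle library, and the 4 Old_CL libraries were the highest of all. The log2 change with CL was 1.14 in young mice (SE 0.16, edgeR adjusted p = 4.0e-05) and 1.01 in aged mice (SE 0.17, edgeR adjusted p = 3.3e-04), which is 2.21-fold and 2.01-fold. With the adipocyte score as a covariate the aged change was 0.35 (edgeR adjusted p = 0.092), and the young change was 0.69 (edgeR adjusted p = 2.4e-04).

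Mfn1, its partner in outer membrane fusion, rose less. It stood at 42.2, 37.9, 36.3 and 34.7 CPM in Young_Ctrl 1 to 4 and at 57.6, 51.4, 47.6 and 56.6 CPM in Young_CL 1 to 4. In aged mice it stood at 31.6, 41.8 and 39.5 CPM in Old_Ctrl 1, 3 and 4 and at 51.4, 50.7, 52.7 and 53.5 CPM in Old_CL 1 to 4. The groups did not overlap at either age, as in 34.1% of all genes in young and 52.8% in aged mice. Its log2 change was 0.50 in young (SE 0.10, edgeR adjusted p = 6.9e-04) and 0.46 in aged mice (SE 0.10, edgeR adjusted p = 0.0022). Taking the adipocyte score as a covariate left 0.34 (edgeR adjusted p = 0.066) and 0.25 (edgeR adjusted p = 0.30), and the lymph node score left 0.39 in young mice (edgeR adjusted p = 0.078). The 15 adipocyte markers themselves rose in 9 cases in young and 12 in aged mice, and their part in the result was not tested.

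Opa1, which fuses inner membranes, stood at 86.7, 65.9, 66.7 and 65.3 CPM in Young_Ctrl 1 to 4 and at 148, 129, 123 and 172 CPM in Young_CL 1 to 4. The aged libraries read 58.9, 66.3 and 71.7 CPM in Old_Ctrl 1, 3 and 4 and 143, 136, 138 and 147 CPM in Old_CL 1 to 4. CL and vehicle libraries were far apart at both ages. The log2 change was 1.01 in young (SE 0.12, edgeR adjusted p = 7.9e-06) and 1.10 in aged mice (SE 0.13, edgeR adjusted p = 2.3e-05). With a marker score as a covariate, calls have no clear reading where that score did not overlap between vehicle and CL. That held for the lymph node score in young mice and the adipocyte score in aged mice. Immt and Opa1 passed the test at both ages with either score as a covariate. They also passed without the 5 muscle-rich libraries, a fit that leaves 1 Young_CL library, assumed to vary like the other groups.

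Immt, the scaffold of crista junctions, had the largest change of the 10 members at both ages. Its level was 184, 129, 119 and 111 CPM in Young_Ctrl 1 to 4 and 427, 378, 377 and 491 CPM in Young_CL 1 to 4. In aged mice the values were 144, 136 and 173 CPM in Old_Ctrl 1, 3 and 4 and 375, 367, 440 and 404 CPM in Old_CL 1 to 4. No CL library came near the vehicle range of its age. The log2 change was 1.62 in young (SE 0.15, edgeR adjusted p = 9.1e-07) and 1.39 in aged mice (SE 0.17, edgeR adjusted p = 2.9e-05).

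Dnm1l, the GTPase of fission, did not pass the test at either age. It stood at 74.2, 68.4, 88.8 and 86.9 CPM in Young_Ctrl 1 to 4, and at 89.9, 81.7, 86.7 and 99.9 CPM in Young_CL 1 to 4. The aged values were 64.7, 67.0 and 69.1 CPM in Old_Ctrl 1, 3 and 4, and 79.8, 77.8, 72.4 and 82.0 CPM in Old_CL 1 to 4. Young groups overlapped, while aged groups did not. The log2 changes were 0.17 (SE 0.09, edgeR adjusted p = 0.16) and 0.22 (SE 0.10, edgeR adjusted p = 0.090). With the muscle score as a covariate the young change was 0.25 and passed (edgeR adjusted p = 0.047).

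Fis1 passed the test in young mice and not in aged mice, and the difference between the ages did not pass. Its level was 78.5, 75.0, 69.7 and 70.5 CPM in Young_Ctrl 1 to 4 and 108, 115, 94.9 and 85.2 CPM in Young_CL 1 to 4. Aged vehicle libraries were already at 89.5, 94.4 and 99.3 CPM, and Old_CL 1 to 4 at 96.9, 106, 117 and 97.1 CPM. The young groups did not overlap, and the aged ones did. The log2 change was 0.46 in young (SE 0.10, edgeR adjusted p = 0.0018) and 0.14 in aged mice (SE 0.11, edgeR adjusted p = 0.30), with an interaction of -0.32 (SE 0.15, edgeR adjusted p = 0.18). Within Young_CL the 3 muscle-rich libraries had the 3 highest values of Fis1. Without the 5 muscle-rich libraries the young change was 0.21 (edgeR adjusted p = 0.27), and it was also lost with the adipocyte score (0.34, edgeR adjusted p = 0.086) or the lymph node score (0.22, edgeR adjusted p = 0.28) as a covariate.

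Tfam, the packaging protein of mitochondrial DNA, did not follow Immt. It stood at 40.9, 37.4, 50.6 and 48.9 CPM in Young_Ctrl 1 to 4 and at 58.0, 54.5, 46.7 and 46.8 CPM in Young_CL 1 to 4. In aged mice it was 33.0, 37.9 and 37.2 CPM in Old_Ctrl 1, 3 and 4 and 36.2, 34.5, 35.6 and 37.0 CPM in Old_CL 1 to 4. Vehicle and CL libraries overlapped at both ages. The log2 changes were 0.21 (SE 0.10, edgeR adjusted p = 0.10) and -0.02 (SE 0.11, edgeR adjusted p = 0.92).

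Bnip3, a mitophagy receptor of the outer membrane, rose with CL in aged mice and did not pass in young mice. The young libraries read 296, 176, 233 and 193 CPM in Young_Ctrl 1 to 4 and 295, 267, 214 and 222 CPM in Young_CL 1 to 4. The aged libraries read 197, 328 and 382 CPM in Old_Ctrl 1, 3 and 4 and 489, 520, 653 and 524 CPM in Old_CL 1 to 4. Young groups lay within the same range, and every Old_CL library lay above every other library. The log2 change with CL was 0.15 in young (SE 0.20, edgeR adjusted p = 0.56) and 0.85 in aged mice (SE 0.22, edgeR adjusted p = 0.0054). The difference between them was 0.70 (SE 0.29), with an edgeR unadjusted p = 0.030 and adjusted p = 0.15. The aged change was 0.36 with the adipocyte score as a covariate (edgeR adjusted p = 0.46) and 0.43 with the lymph node score (edgeR adjusted p = 0.13), and was 0.82 without the muscle-rich libraries (edgeR adjusted p = 0.039).

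Park2, encoding Parkin, was the least abundant member. It stood at 4.34, 4.21, 3.21 and 2.95 CPM in Young_Ctrl 1 to 4 and at 4.78, 4.66, 3.15 and 5.98 CPM in Young_CL 1 to 4. In aged mice it was at 3.03, 5.06 and 4.35 CPM in Old_Ctrl 1, 3 and 4 and at 7.92, 6.58, 7.17 and 8.78 CPM in Old_CL 1 to 4. Old_CL held the 4 highest values. The log2 change was 0.38 in young (SE 0.21, edgeR adjusted p = 0.15) and 0.83 in aged mice (SE 0.21, edgeR adjusted p = 0.0053), and 0.43 in aged mice with the adipocyte score as a covariate (edgeR adjusted p = 0.44).

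Pink1, the kinase upstream of Parkin, stood at 271, 187, 166 and 166 CPM in Young_Ctrl 1 to 4 and at 282, 304, 243 and 239 CPM in Young_CL 1 to 4. The aged libraries read 264, 386 and 379 CPM in Old_Ctrl 1, 3 and 4 and 442, 462, 528 and 444 CPM in Old_CL 1 to 4. Young_Ctrl 1 lay within the Young_CL range, and the aged groups did not overlap. The log2 change was 0.43 in young (SE 0.16, edgeR adjusted p = 0.043) and 0.45 in aged mice (SE 0.18, edgeR adjusted p = 0.051), nearly the same size on the 2 sides of the threshold. The young call was lost without Young_Ctrl 2, 3 or 4 or Young_CL 1 or 2, with edgeR adjusted p from 0.091 to 0.12. It was also lost without the muscle-rich libraries (0.27, edgeR adjusted p = 0.48), with either marker score (0.04 with the adipocyte score and 0.00 with the lymph node score) and with the replicate number as a block (0.44, edgeR adjusted p = 0.073). The muscle score, no filter, upper-quartile factors, the 2 groups alone and Old_CL 1, 2 and 4 summed each ended it too, with edgeR adjusted p from 0.051 to 0.15. In aged mice the change passed with DESeq2 (adjusted p = 0.038), limma-voom (adjusted p = 0.040), the muscle score (edgeR adjusted p = 0.042), the 2 groups alone (edgeR adjusted p = 0.035) and without Old_Ctrl 3 (0.54, edgeR adjusted p = 0.0499). It was -0.11 with the adipocyte score as a covariate (edgeR adjusted p = 0.77).

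**Figure D2:**
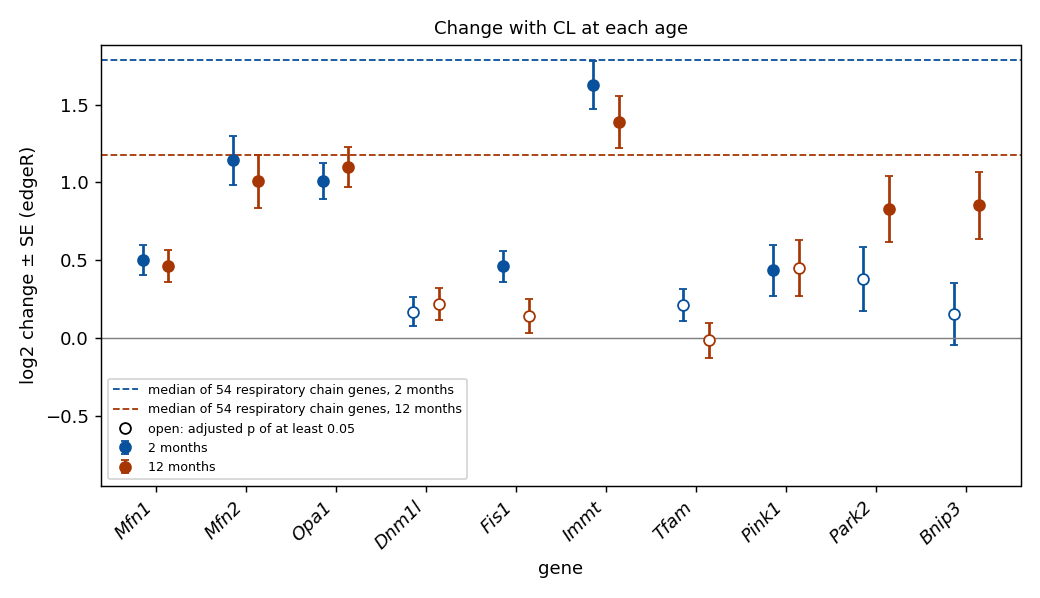
Log2 change with CL (edgeR, y axis) for each member (x axis) in mice of 2 and 12 months; points are estimates, bars are SE and open points did not pass the adjusted test. Immt, Mfn2 and Opa1 stand at 1.01 or more at both ages, and dashed lines mark the median change of 54 respiratory chain genes, 1.79 at 2 months and 1.18 at 12 months.

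Since CL also raised the transcripts of the respiratory chain, 53 of 54 in young mice (median log2 change 1.79) and 52 of 54 in aged mice (median 1.18), the members were set against that yardstick by scaling each library to its respiratory chain counts. On this scale all 10 members were lower after CL in young mice and 8 of 10 in aged mice, while of all genes 95.6% were called in young mice (0.968% higher and 94.7% lower) and 92.2% in aged mice (1.26% higher and 91.0% lower), so these counts say nothing particular about the members. The size differed among them. Immt came closest to the respiratory chain, at -0.26 in young (SE 0.11, edgeR adjusted p = 0.033) and 0.04 in aged mice (SE 0.12, edgeR adjusted p = 0.76). In aged mice Opa1 was at -0.24 (SE 0.13, edgeR adjusted p = 0.081) and Mfn2 at -0.34 (SE 0.12, edgeR adjusted p = 0.012). Scaled to genes of the tricarboxylic acid cycle and fatty acid oxidation instead, every member lay lower still and all 10 were called lower at both ages; in aged mice Opa1 was then at -0.63 (edgeR adjusted p = 8.5e-04) and Immt at -0.35 (edgeR adjusted p = 0.020). Relative to the respiratory chain, Dnm1l, Bnip3 and Tfam had the lowest values in young mice, at -1.77, -1.74 and -1.74. In aged mice Tfam, Fis1 and Dnm1l were lowest, at -1.36, -1.21 and -1.13. The call for Immt in young mice was lost with the replicate number as a block (-0.26, edgeR adjusted p = 0.051), without Young_CL 1 or 2 or Young_Ctrl 1 or 3 (edgeR adjusted p up to 0.12) and without the muscle-rich libraries (-0.08).

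Ratios of counts within a library do not depend on how libraries are scaled, and they are given as descriptions. The log2 ratio of Mfn2 to Mfn1 averaged 1.98 ± 0.27 in Young_Ctrl (SD, n = 4), 2.66 ± 0.05 in Young_CL (n = 4), 2.52 ± 0.12 in Old_Ctrl (n = 3) and 3.05 ± 0.07 in Old_CL (n = 4). The ratio of Opa1 to Dnm1l was -0.16 ± 0.31, 0.67 ± 0.12, -0.03 ± 0.10 and 0.86 ± 0.06 in the same order. Vehicle and CL libraries did not overlap at either age in these ratios. Immt to Tfam gave 1.59 ± 0.47, 3.02 ± 0.26, 2.06 ± 0.20 and 3.47 ± 0.11, the widest spread between groups. Counts of different genes also depend on transcript length, so only the shift of a ratio between groups can be read.

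**Figure D3:**
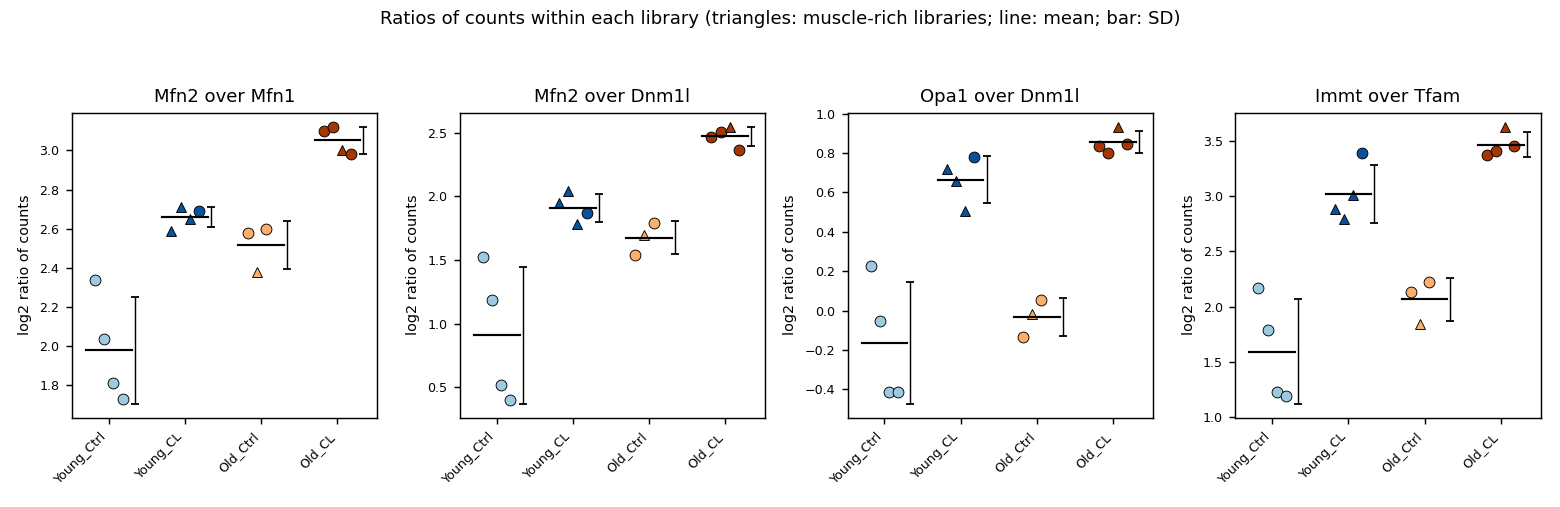
Log2 ratio of the counts of 2 members within each library (y axis, not starting at 0) by group (x axis); points are libraries, triangles muscle-rich ones, the line the mean and the bar the SD. In all 4 panels the CL libraries of each age lie above the vehicle libraries of that age.

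Age was next compared within each treatment. Under vehicle 3 members were higher in aged mice, Pink1, Fis1 and Mfn2, and 0 were lower, with 27.2% of all genes called (15.1% higher and 12.2% lower). Pink1 had a log2 change of 0.80 (SE 0.18, edgeR adjusted p = 0.0052), Mfn2 of 0.50 (SE 0.17, edgeR adjusted p = 0.038) and Fis1 of 0.36 (SE 0.11, edgeR adjusted p = 0.021). Of these 3 only Fis1 had groups that did not overlap, as had 27.1% of all genes. Young_Ctrl 1, with the highest adipocyte score of its group (mean log2 CPM of 11.08), was also the highest Young_Ctrl library for every member but Dnm1l and Tfam. Its robust SDs of log2 ratios against Young_Ctrl 3 and 4, 0.614 and 0.747, were the largest of any pairs within a group. Tfam (-0.30, edgeR adjusted p = 0.057), Dnm1l (-0.25, edgeR adjusted p = 0.078) and Bnip3 (0.43, edgeR adjusted p = 0.14) did not pass.

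These calls depended on single libraries. Leaving out Young_Ctrl 1 gave 7 called members, while leaving out Old_Ctrl 4, Young_Ctrl 3 or Young_Ctrl 4 gave 1. The call for Mfn2 was lost without Old_Ctrl 3 or 4 or Young_Ctrl 2, 3 or 4, with edgeR adjusted p from 0.058 to 0.15, and with the replicate number as a block (0.53, edgeR adjusted p = 0.052). It was also lost with the muscle score, without the muscle-rich libraries, with the 2 groups alone and with Old_CL 1, 2 and 4 summed (edgeR adjusted p from 0.052 to 0.13). The call for Fis1 was lost without Old_Ctrl 4, Young_Ctrl 3 or Young_Ctrl 4, with edgeR adjusted p from 0.056 to 0.090. Bnip3 passed without Old_Ctrl 1 (0.66, edgeR adjusted p = 0.028) or Young_Ctrl 1 (0.59, edgeR adjusted p = 0.034), and Immt without Young_Ctrl 1 (0.34, edgeR adjusted p = 0.045). Dnm1l and Tfam passed, as lower, without Young_Ctrl 1 (edgeR adjusted p = 0.047 and 0.032) or Young_Ctrl 2 (edgeR adjusted p = 0.029 and 0.020). The call for Pink1 remained whichever library was left out, with a log2 change from 0.71 to 0.99.

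All 15 B cell and lymph node markers were lower in aged vehicle fat, 13 of 15 macrophage markers were higher, and 2 of 15 adipocyte markers were higher. With the lymph node score as a covariate 0 members were called, and Pink1 stood at 0.16 (edgeR adjusted p = 0.87), Fis1 at 0.02 and Mfn2 at 0.04. That score did not overlap between the vehicle groups, so this fit cannot tell it apart from age. With the adipocyte score Pink1 alone was called, at 0.57 (edgeR adjusted p = 0.015).

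After CL the ages differed in 4 members. Bnip3, Pink1 and Park2 were higher in aged mice and Tfam was lower, with 40.0% of all genes called (20.5% higher and 19.4% lower). The groups of all 4 were free of overlap, as were 44.9% of all genes. Bnip3 had a log2 change of 1.13 (SE 0.20, edgeR adjusted p = 5.3e-04), Pink1 of 0.81 (SE 0.16, edgeR adjusted p = 0.0013) and Park2 of 0.69 (SE 0.20, edgeR adjusted p = 0.011). Tfam fell by 0.53 on the log2 scale (SE 0.10, edgeR adjusted p = 9.7e-04). These 4 calls remained whichever single library was left out. With Old_CL 1, 2 and 4, the 3 close libraries, summed to 1, Park2 was at 0.67 and did not pass (edgeR adjusted p = 0.059), which left 3 called members. Mfn2 (0.36, edgeR adjusted p = 0.076) had groups that did not overlap but did not pass. With the 2 groups alone it passed (0.35, edgeR adjusted p = 0.0034), as did Dnm1l (-0.21, edgeR adjusted p = 0.046), which made 6 called members. In the fit to all groups Mfn1 (-0.04), Opa1 (-0.02), Immt (-0.08) and Fis1 (0.04) had values near 0.

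Young_CL has 3 muscle-rich libraries of 4, and Old_CL has 1 of 4. Without the 5 muscle-rich libraries, with 1 Young_CL library left, 0 of the members were called: Bnip3 was at 1.17 (edgeR adjusted p = 0.057), Pink1 at 0.88 (0.070), Tfam at -0.42 (0.17) and Park2 at 0.34 (0.47). With the muscle score as a covariate all 4 passed, and Dnm1l was also called lower (-0.24, edgeR adjusted p = 0.040). Of the adipocyte markers 8 of 15 were higher in aged CL fat, and all 15 B cell and lymph node markers were lower. With the lymph node score as a covariate only Tfam was called (-0.58, edgeR adjusted p = 0.038). With the adipocyte score Bnip3 (0.77, edgeR adjusted p = 0.031), Tfam (-0.40, edgeR adjusted p = 0.040) and Immt (-0.50, edgeR adjusted p = 0.0054) were called, and Pink1 (0.42, edgeR adjusted p = 0.064) and Park2 (0.41, edgeR adjusted p = 0.31) were not. Neither the lymph node score nor the adipocyte score overlapped between Young_CL and Old_CL, so fits with them cannot tell score and age apart. Whether the shift in cell markers produces any of these differences was not tested.

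**Figure D4:**
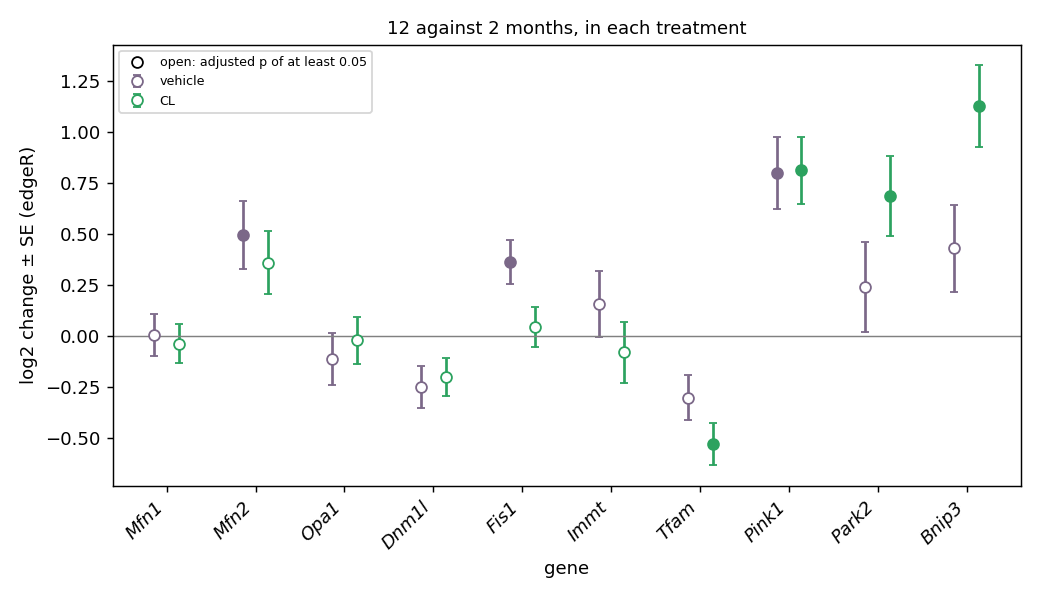
Log2 difference of 12 against 2 months (edgeR, y axis) for each member (x axis) within vehicle and within CL; points are estimates, bars are SE and open points did not pass the adjusted test. Pink1 is at 0.80 under vehicle and 0.81 after CL, Bnip3 at 0.43 and 1.13, and Tfam at -0.30 and -0.53.

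The wider pathways were read from lists of related genes that leave the members out, described by counts. They are to be read beside the shares of all genes called: 21.7% higher and 22.1% lower with CL in young mice, 23.1% and 22.2% in aged mice, 15.1% and 12.2% with age under vehicle, and 20.5% and 19.4% with age after CL. Of 27 tested regulators of fusion and fission 22 rose and 1 fell with CL in young mice (median log2 change 0.81), and 22 rose and 1 fell in aged mice (median 0.58). Chchd10, an intermembrane space protein, rose by 3.16 in young and 3.15 in aged mice (edgeR adjusted p = 1.3e-08 and 3.1e-07). Letm1, an ion exchanger of the inner membrane, rose by 2.26 and 1.88, and Mtfp1, an inner membrane protein linked to fission, by 2.58 and 1.67. Parl, the inner membrane protease that cleaves Pink1, rose by 0.99 in young mice (edgeR adjusted p = 2.0e-07), from 31.7 to 62.7 mean CPM. The gene that fell at both ages was Fam73a, named here after its values were seen (-0.62 and -0.48).

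Most MICOS and outer membrane import genes rose with CL. Of 21 tested, 20 rose and 0 fell in young mice (median 0.97), and 15 rose and 0 fell in aged mice (median 0.45). The age by CL interaction itself passed for 7 of the 21, all lower (3.77% of all genes), and none of the 7 passed with Old_CL 1, 2 and 4 summed or without the muscle-rich libraries. The MICOS subunit Minos1 (Mic10) rose by 1.55 in young mice, from 55.7 to 163 mean CPM, and by 0.84 in aged mice, from 60.1 to 108 mean CPM. Apoo (Mic26) rose by 2.48 and 1.85 from a low level. After CL 13 of the 21 were lower in aged than in young mice and 1 was higher (median -0.35). In that comparison Tomm22, a receptor of the import pore, was lower by -0.63 (edgeR adjusted p = 1.3e-04) and Minos1 by -0.60 (edgeR adjusted p = 3.1e-04). Immt itself differed by -0.08 there and did not pass. Of the 54 respiratory chain genes 40 were lower and 1 higher in aged mice after CL, and the interaction passed for 25, all lower. Of 30 genes of the tricarboxylic acid cycle and fatty acid oxidation 16 were lower and 0 higher, and the interaction passed for 5, all lower. A smaller change in aged mice was thus not particular to MICOS and import genes.

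Receptors and adaptors of mitophagy were mixed. Of 17 tested, 8 rose and 1 fell in young mice (median 0.25), and 9 rose and 1 fell in aged mice (median 0.34). Bcl2l13, an outer membrane receptor, rose by 0.91 and 1.12, and Nlrx1, a mitochondrial NOD-like protein, by 1.11 and 1.43. Gbas (Nipsnap2) rose by 1.05 and 1.01. The gene that fell at both ages was Mcl1, named after its values were seen (-0.41 and -0.60). In aged against young mice after CL, 6 were higher and 2 lower. Phb2 was among the lower ones, at -0.46 (edgeR adjusted p = 0.0017). Optn, an adaptor that links ubiquitin to the autophagosome, was higher by 0.85 (edgeR adjusted p = 0.0012). It did not pass with the adipocyte score (0.32, edgeR adjusted p = 0.063), with the lymph node score (0.31, edgeR adjusted p = 0.40) or without the muscle-rich libraries (0.71, edgeR adjusted p = 0.17).

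Of 22 partners and modifiers of the Pink1-Parkin axis 14 rose and 2 fell in young mice (median 0.46), and 15 rose and 0 fell in aged mice (median 0.35). Lonp1, the matrix protease, rose by 1.17 and 1.01. Rhot2 (Miro2), a transport adaptor that Parkin marks, rose by 0.59 in young (edgeR adjusted p = 8.9e-06) and 0.38 in aged mice (edgeR adjusted p = 9.4e-04). Rhot1 (Miro1) rose by 0.54 in young (edgeR adjusted p = 3.6e-05) and 0.50 in aged mice (edgeR adjusted p = 1.8e-04). The deubiquitinase gene Usp35 moved in opposite directions, by -0.46 in young and 0.63 in aged mice, and was 1.16 higher in aged than in young mice after CL (edgeR adjusted p = 4.2e-05).

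Autophagosome genes rose modestly with CL, 16 of 30 in young mice with 1 lower (median 0.28) and 17 of 30 in aged mice with 0 lower (median 0.30). Wipi2, which recruits the conjugation machinery, rose by 0.48 and 0.70, and the initiating kinase Ulk1 by 0.70 in aged mice (edgeR adjusted p = 1.6e-04). With the adipocyte score as a covariate neither Wipi2 in young mice (0.28, edgeR adjusted p = 0.080) nor Ulk1 in aged mice (0.32, edgeR adjusted p = 0.080) passed. After CL 18 of the 30 were higher in aged than in young mice and 0 were lower (median 0.26, against -0.01 over all genes). Wipi1, which binds the growing membrane, stood at 23.8 mean CPM in Young_CL and 50.0 in Old_CL (1.08, edgeR adjusted p = 3.6e-05), and Map1lc3a, an LC3 gene, at 168 and 326 mean CPM (0.96, edgeR adjusted p = 6.3e-04). Under vehicle 8 of 30 were higher and 1 lower with age, among them Map1lc3a (0.80, edgeR adjusted p = 0.0069) and Map1lc3b (0.55, edgeR adjusted p = 0.0069). With the lymph node score as a covariate these were 0.21 (edgeR adjusted p = 0.85) and 0.068 (edgeR adjusted p = 0.94), and Map1lc3a after CL was 0.46 (edgeR adjusted p = 0.24).

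Genes for the upkeep of mitochondrial DNA were mixed. Of 28 tested, 14 rose and 3 fell with CL in young mice (median 0.33), and 14 rose and 3 fell in aged mice (median 0.25). Lrpprc, which stabilises mitochondrial messages, rose by 0.96 and 0.72, and Top1mt, the mitochondrial topoisomerase, by 1.19 and 0.80. Esrra, encoding the nuclear receptor ERRα, rose by 1.21 in young mice, from 68.1 to 157 mean CPM. After CL 9 of the 28 were lower in aged mice and 3 higher, with Esrra lower by -0.76 (edgeR adjusted p = 1.0e-04) and Lrpprc by -0.51 (edgeR adjusted p = 2.9e-04). Of 10 genes that move mitochondria along the cytoskeleton 5 rose and 0 fell in young mice and 5 rose and 1 fell in aged mice, with Kif1b, a kinesin, at 0.82 and Myo19, a myosin, at 1.42 in aged mice. Myo19 was at 0.86 with the adipocyte score (edgeR adjusted p = 0.11).

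**Figure D5:**
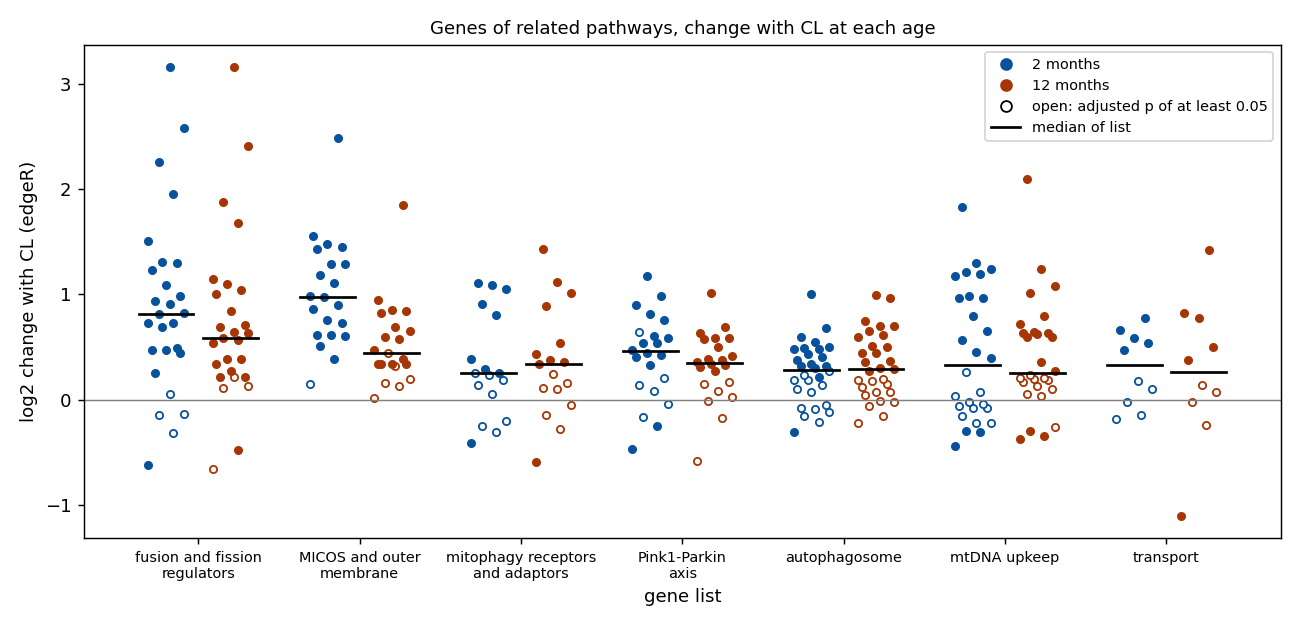
Log2 change with CL (edgeR, y axis) of every tested gene in 7 lists of related genes (x axis) in mice of 2 and 12 months; filled points passed the adjusted test, open points did not, and lines are list medians. The medians run from 0.97 (MICOS and outer membrane, 2 months) to 0.25 (mitophagy receptors at 2 months and mtDNA upkeep at 12 months).

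Over the 15 libraries, which share the shift between groups, the genes most like each member in level were sought among 10791 others. Immt ran closest to Atp5b, a subunit of ATP synthase (Pearson r = 0.997), Mdh2 and Cpt2. Mfn2 ran closest to Pex5 (r = 0.996), Opa1 to Msrb2 (r = 0.985), Mfn1 to Clpx (r = 0.967) and Bnip3 to Nxt2 (r = 0.987). Pink1 ran closest to Amigo1 (r = 0.976) and Tfam to Csnk2a1 (r = 0.979). Fis1 ran closest to Arpc1a (r = 0.971), Park2 to Zkscan5 (r = 0.944) and Dnm1l to Eif2s3y (r = 0.941). Without the 5 muscle-rich libraries these coefficients stayed between 0.935 and 0.998. They describe likeness across all groups together and carry no test.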

How the data were processed

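Gene expression was measured by sequencing polyA RNA of inguinal fat, with TruSeq libraries per the labels' protocols. Per the submitters' processing notes, the authors used STAR, featureCounts of Subread and the mm9 build; versions, annotation and the strand setting are not given in the sources used here. The deposited values are whole-number gene counts, 24015 genes in 15 libraries, used as deposited. The members and the gene lists were chosen with earlier results of these data known.

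Genes were kept with filterByExpr by group (15288), scaled by TMM and tested in edgeR 4.0.16 (R 4.3.3) with the robust quasi-likelihood fit, 1 coefficient for each group and all 15 libraries together, with Benjamini-Hochberg adjustment over all tested genes and calls at 0.05. The SE was derived from the F statistic as |log2 change| / √F. The contrasts were the CL effect at either age, the age effect under either treatment, and the interaction of age and CL. A further fit scaled libraries to their counts over 54 respiratory chain genes. All members are named for CL at either age and for age after CL, and some of them in the other comparisons. From each list up to 4 genes are named, taken from those with the smallest p, with exceptions marked. Marker scores are mean log2 CPM with a prior count of 2. Levels per kilobase use GENCODE exon lengths from another build than that of the counts, for comparing genes only. None of the members shares all its counts with another gene. Bnip3, Dnm1l and Immt overlap antisense models in that annotation, and reads of such partners cannot be told apart without strand. Pink1 shares exon bases on its own strand with Gm27646 (110 bases) and Mir7019 (69 bases), of which Mir7019 is in the count table.

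Results were recomputed with RLE or upper-quartile factors, with limma 3.58.1 (voom) or DESeq2 1.42.0, without the filter or with a stricter one (3 libraries at 1 CPM or more, mean count 10 or more), on the 2 groups alone, with the replicate number as a block, Old_CL 1, 2 and 4 summed, marker scores as covariates, the 5 muscle-rich libraries left out, and each library left out in turn. The adipocyte score as a covariate was added after seeing the data. The lymph node and adipocyte scores moved with the groups, so fits with them cannot separate a score from age or CL. Total counts set the precision: 3 counts equal 0.491 CPM in Young_CL 3 and 0.0582 CPM in Old_Ctrl 3. The procedure was also tested on simulated data with 100 genes changed at each size. It called 79% of the 2-fold and 99% of the 4-fold genes for CL in young mice (15168 genes). For the interaction it called 54% and 94% (15143 genes). Unchanged genes made up 2.73% of the calls for CL in young mice and 3.90% for the interaction. Their share was 6.08% for CL in aged mice, 6.84% for age under vehicle and 8.04% for age after CL. The shares for CL in aged mice and for age under either treatment were above the level set for calls. The simulation changed a far smaller share of genes than the 43.9% called with CL in young mice. It gave each unchanged gene a common mean and did not model muscle-rich libraries or the closeness of Old_CL 1, 2 and 4. Its shares may therefore not carry over to these data. A longer form of the NRF1 word was searched first and then shortened to its core; the longer form also matched Opa1 alone among the members.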

Additional observations from a re-analysis of the deposited data

Results flagged for a closer look

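Opa1 in Young_Ctrl 1 stood at 86.7 CPM, while the other 3 libraries of that group lay between 65.3 and 66.7 CPM. The gap was 0.933 of the group's range, and it was the 1 far library among 30 sets of 4 libraries tested over the 10 members; chance gives about 1 in 20. The same library had the highest adipocyte score of its group (mean log2 CPM of 11.08), and the part of that in the value was not tested. It was also the highest of its group for every member but Dnm1l and Tfam, so the departure is not particular to Opa1.

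None of the 10 members had an age by CL interaction that passed edgeR's adjusted test, but 15 of 146 tested genes of the related lists did (10.3%, against 7.08% of all genes), so that the change with CL differed between the ages. The change was lower in aged mice in 13 of them and higher in 2. The differences (aged minus young change, log2, edgeR) were -0.91 for Mtfp1, -0.82 for Tomm5, -0.80 for Slirp, -0.74 for 2410015M20Rik (a MICOS subunit), -0.71 for Minos1, -0.70 for Samm50, -0.66 for Tomm6, -0.60 for Parl, -0.60 for Spire1, -0.60 for Tomm22, -0.59 for Esrra, -0.57 for Tomm7 and -0.55 for Phb2. Usp35 at 1.10 and Pik3r4 at 0.57 fell with CL in young and rose in aged mice. Tomm5 and Tomm6 are named here after their values were seen. Of the 54 respiratory chain genes kept as a yardstick, 25 had a called interaction, all lower. With Old_CL 1, 2 and 4 summed, which leaves 2 samples in that group, none of the 15 passed (edgeR adjusted p from 0.071 to 0.20), and none passed without the 5 muscle-rich libraries (edgeR adjusted p from 0.065 to 0.31). The calls for Esrra, Phb2, Slirp, Spire1, Tomm5, Tomm6, Tomm22 and Tomm7 were also lost in at least 1 fit that left out a library, and Old_Ctrl 4 was among those libraries for each of the 8, with edgeR adjusted p from 0.060 to 0.13 without it. Those for Parl, Mtfp1, Minos1, 2410015M20Rik, Samm50, Usp35 and Pik3r4 were not lost in any fit that left out a single library.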

How the results depend on the processing

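Members called in each comparison were recounted under every alternative. CL in young mice gave 6 called members, 3 with the adipocyte score and 3 with the lymph node score as a covariate, and 5 to 6 when each library was left out in turn. CL in aged mice gave 6, 2 with the adipocyte score, and 6 to 7 over the libraries. Age under vehicle gave 3, 1 with the adipocyte score, 0 with the lymph node score, 5 with DESeq2, 5 with upper-quartile factors, and 1 to 7 over the libraries. Age after CL gave 4, 3 with Old_CL 1, 2 and 4 summed, 6 with the 2 groups alone, 1 with the lymph node score, 0 without the 5 muscle-rich libraries, and 4 in each fit that left out a library. The interaction gave 0, 2 with the adipocyte score (Mfn2 -0.33 and Immt -0.40), 1 with the lymph node score (Bnip3 0.84), and 0 over the libraries. Relative to the respiratory chain the counts were 10 in young (9 to 10 over the libraries) and 8 in aged mice (6 to 8 over the libraries, 5 without the muscle-rich libraries, 10 scaled to tricarboxylic acid cycle and fatty acid oxidation genes). Over the named genes of the related lists 2188 cases kept direction and call, 302 lost the call and 6 changed direction.

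Same-numbered libraries of different groups did not deviate together more than others. Of 21 such pairs 6 had a correlation of deviations over 0.1 (range -0.35 to 0.34), as had 20 of 63 pairs with different numbers. This check showed no pairing by number but cannot exclude it, since other differences between libraries enter the correlations. The highest, 0.43, was between Young_CL 2 and Old_CL 3, both muscle-rich. With the replicate number as a block the counts were 5, 6, 2, 4 and 0 in the order above, and 9 and 7 relative to the respiratory chain. The calls it ended were Pink1 for CL in young mice, Mfn2 for age under vehicle, and, relative to the respiratory chain, Immt in young and Park2 in aged mice.

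Changes of direction occurred mostly in values near 0; over the members' levels the same direction and side of the threshold were kept in 961 cases, 52 lost the call, 26 gained it and 51 changed direction. With the lymph node score as a covariate, log2 values of the other sign were -0.41 for Bnip3 with CL in young mice, -0.046 for Fis1 with CL in aged mice, -0.42 (Bnip3), -0.28 (Immt) and -0.16 (Mfn1) for age under vehicle, and -0.25 (Fis1) and -0.035 (Mfn2) for age after CL. In related genes for age under vehicle they were -0.071 (2410015M20Rik), -0.10 (Chchd6), 0.30 (Esrrg), -0.12 (Tomm20), -0.072 (Tomm7) and -0.087 (Ube2l3). With the adipocyte score they were -0.21 (Bnip3, CL in young), -0.015 (Fis1), -0.11 (Pink1) and 0.17 (Tfam) with CL in aged mice, -0.095 (Immt) and -0.088 (Mfn1) for age under vehicle, -0.067 (Fis1) and -0.10 (Mfn2) for age after CL, and -0.15 (Pink1) for the interaction. Without the muscle-rich libraries they were -0.022 (Bnip3, CL in young), 0.026 (Tfam, CL in aged), -0.12 (Mfn1, age under vehicle), -0.061 (Dnm1l) and -0.15 (Opa1) for the interaction, and -0.012 (Immt, relative to the respiratory chain, aged). With the muscle score Dnm1l stood at -0.039 in the interaction. Scaling aged libraries to tricarboxylic acid cycle and fatty acid oxidation genes put Immt at -0.35. Mfn1 for age under vehicle was -0.015 with RLE factors, -0.025 with upper-quartile factors, -7.7e-04 with the 2 groups alone and -0.0021 with the replicate block. Pink1 in the interaction was -0.0014 with DESeq2, -6.9e-04 with RLE factors and -0.0072 with the replicate block, and Tfam with CL in aged mice was 0.0080 with that block. The cause was not tested. Depth limits Park2 most, at 19 counts in Young_CL 3.

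Leaving out 1 library changed the sign of these values, given as ranges: Dnm1l -0.0070 to 0.12, Mfn1 -0.15 to 0.039, Opa1 -0.017 to 0.19 and Pink1 -0.18 to 0.11 for the interaction; Fis1 -0.030 to 0.11, Immt -0.15 to 0.0077, Mfn1 -0.11 to 0.0039 and Opa1 -0.11 to 0.079 for age after CL; Mfn1 -0.075 to 0.11 for age under vehicle; Tfam -0.070 to 0.022 with CL in aged mice; and Immt -0.020 to 0.072 relative to the respiratory chain in aged mice.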
